A study of Mus musculus with 6 samples.

Results

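Expression of 7 genes that are widely used to mark monocytes and macrophages was followed: Ly6c2, F13a1, Mpeg1, Ms4a6c, Cd68, Apoe and Adgre1. They were picked by gene symbol, all 7 were among the 21515 genes of the expression table, and all 7 were among the 9830 genes with enough signal to test. RNA had been sequenced from mouse bone marrow cells (C57BL/6) that were immortalised with the leukaemia fusion NUP98-NSD1 together with NRASG12D and that received Cas9 and a guide RNA by lentivirus. In 3 libraries (replicates 1, 4 and 5) the guide was T44 against Clec12a, an inhibitory receptor of myeloid cells, and in 3 control libraries (replicates 6, 8 and 9) it was directed at the bacterial gene lacZ. Both groups carried the fusion, NRASG12D, Cas9 and the dTomato reporter, both came from sorted single cells that had been expanded, and both were cultured with 15% serum, human interleukin-6, mouse interleukin-3 and mouse stem cell factor for 48 hours. Replicate therefore means a library of expanded sorted cells, and no source used here says whether the 3 of a group are independent, so every p-value reflects library-to-library spread alone. The comparison asks how a guide against Clec12a alters expression in these leukaemia-like cells.

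Monocytes arise in the bone marrow from progenitors shared with neutrophils, circulate, and can mature into macrophages in tissues. The surface protein Ly6C is high on freshly made inflammatory monocytes, whereas F4/80, the product of Adgre1, and the endosomal protein CD68 become prominent as cells turn into macrophages. Transcription factors of the PU.1 and C/EBP families drive the early steps of this path.

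Of the 7 marker genes, 1 changed: Apoe, which encodes the lipid carrier apolipoprotein E, fell to 0.345 of its control mean. Ly6c2 as deposited was higher in every knockout library than in every control library, but its difference did not pass the test and the groups overlapped once library totals were made equal. Adgre1, F13a1, Mpeg1, Ms4a6c and Cd68 overlapped between the groups. A gene is said to rise or fall here when its adjusted p from limma was under 0.05, on log2(FPKM + 1), where FPKM counts fragments relative to transcript length and library size. The 1 of 7 genes called stands beside 1.9% of all tested genes called in either direction, 1.38% higher and 0.519% lower. At an unadjusted p under 0.05, 2 of the 7 passed, Apoe lower and Ly6c2 higher, beside 27.9% of all tested genes (12% higher and 15.9% lower). The same 2 genes did not overlap between groups, as was so for 36.3% of all tested genes (14.5% higher and 21.8% lower), so those 2 counts are near the background.

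**Figure D1:**
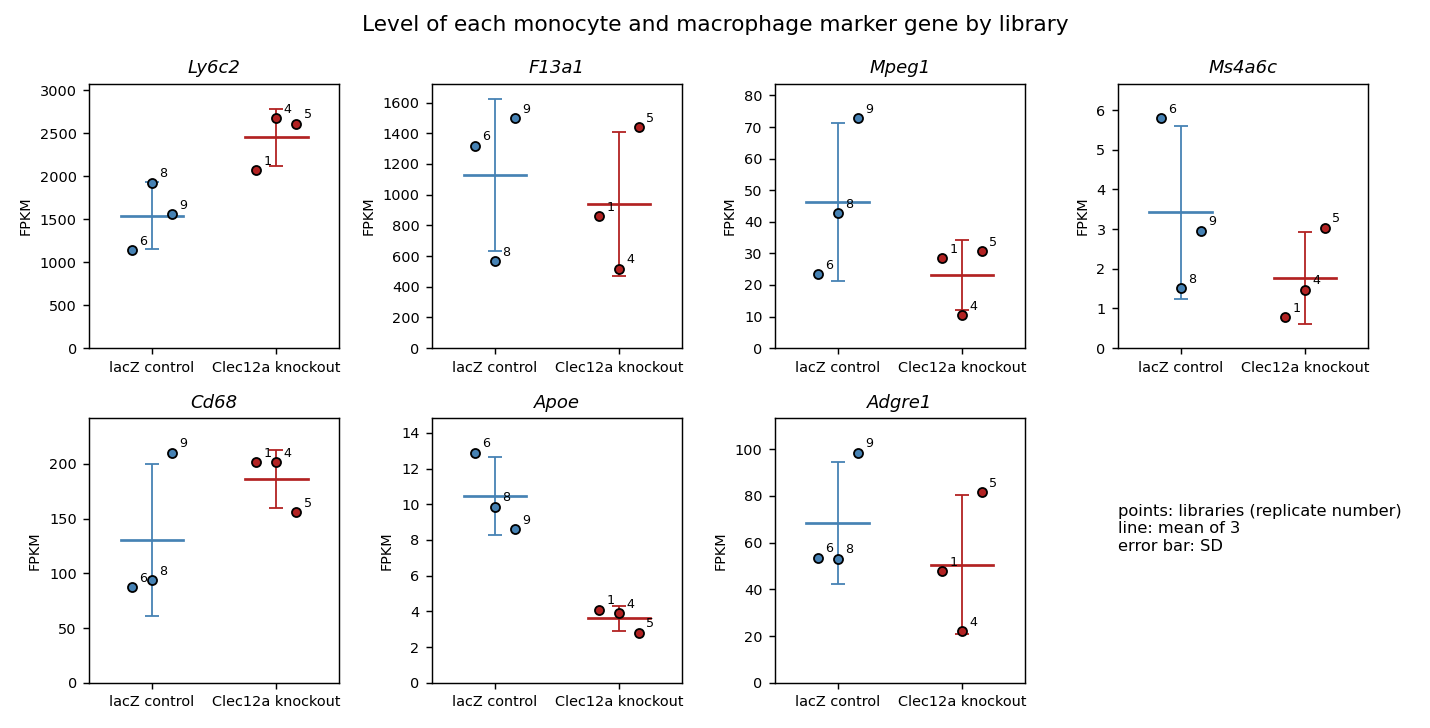
FPKM of each of the 7 genes in each library; points are libraries with their replicate number, horizontal lines are means of 3 and error bars are SD. Apoe (2.81 to 4.10 against 8.61 to 12.9 FPKM) and Ly6c2 (2069 to 2677 against 1140 to 1924 FPKM) separate the groups, and the other 5 genes overlap.

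FPKM totals were 590211 to 699113 in knockout libraries and 534440 to 554534 in controls, so the total moved with the guide. With every library scaled to an equal total, the median log2 fold change of all tested genes moved from -0.06 to -0.24 and the genes called went from 136 higher and 51 lower to 71 higher and 49 lower. Depth estimated from the steps of low values was 33700000 to 61000000 fragments. Clec12a itself overlapped between the groups, at 94.5 to 170 FPKM in knockout and 157 to 280 FPKM in control libraries (log2 fold change -0.79, adjusted p = 0.130), so its RNA does not by itself check the labels.

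Promoter letters were read in the 250 bases before each RefSeq transcription start (GRCm38.p6), where 6 of the 7 genes had an entry. The core AGGAAGT of PU.1 sites, searched on both strands, lay upstream of at least 1 start of Ly6c2, F13a1 and Ms4a6c, and of 8.80% of 27025 genes. It was not among the letters of these windows for Mpeg1, Cd68 or Apoe. The 140 bases before the start are shown for the 3 genes with the core, in capitals, and for Apoe, the gene that fell. A match is a description of letters, not of a bound site:
Ly6c2, chr15:75111972-75112111, minus strand: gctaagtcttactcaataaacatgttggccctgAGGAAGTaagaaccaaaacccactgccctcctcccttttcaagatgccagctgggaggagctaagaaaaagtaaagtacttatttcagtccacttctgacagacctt
F13a1 (its second start), chr13:37049214-37049353, minus strand: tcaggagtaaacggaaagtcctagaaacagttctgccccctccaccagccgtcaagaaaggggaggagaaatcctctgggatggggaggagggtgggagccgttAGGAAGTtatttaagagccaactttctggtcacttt
Ms4a6c, chr19:11469228-11469367, plus strand: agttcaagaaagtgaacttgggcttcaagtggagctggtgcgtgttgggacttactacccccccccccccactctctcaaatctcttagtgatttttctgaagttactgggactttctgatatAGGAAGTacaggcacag
Apoe, chr7:19699189-19699328, minus strand: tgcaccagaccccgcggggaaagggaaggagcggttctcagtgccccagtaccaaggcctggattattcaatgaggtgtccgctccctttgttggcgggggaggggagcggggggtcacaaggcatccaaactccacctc

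The other motifs searched were TTNCNNNAA, a loose C/EBP site found upstream of Ly6c2, Mpeg1 and Ms4a6c and of 36.2% of genes, and TGANTCA, the AP-1 site, found upstream of Cd68 and of 7.82% of genes. The interferon response element was in none of the windows of the 6 genes and in those of 3.46% of genes.

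Apoe (chr7:19696109-19699188, minus strand, GRCm38, as for the positions that follow) binds lipoproteins, carries cholesterol between cells and is made in quantity by mature macrophages. It stood at 4.10, 3.91 and 2.81 FPKM in knockout replicates 1, 4 and 5 and at 12.9, 9.87 and 8.61 FPKM in control replicates 6, 8 and 9. Every knockout library lay below every control library. The means were 3.61 ± 0.692 and 10.5 ± 2.19 FPKM (SD, n = 3 each). On the log2(FPKM + 1) scale Apoe fell by 1.31 (SE 0.24, 95% interval -1.85 to -0.77, adjusted p = 0.0397). An exact two-sided permutation test of the same difference gave p = 0.1, the smallest that 3 against 3 libraries allow. The call is close to its threshold: it was lost when any library other than control replicate 9 was left out, with adjusted p from 0.0619 to 0.162 and log2 fold changes from -1.39 to -1.16, and it was lost without the filter on low values (adjusted p = 0.113). Correcting the libraries for GC content and transcript length gave -1.78 (adjusted p = 0.0238), and equal totals gave -1.48 (adjusted p = 0.0367). In bulk RNA a smaller share of cells that express a gene and less RNA per cell cannot be told apart. About 134 to 1106 fragments lay behind each Apoe value, if the longest annotated transcript is taken.

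Limma called none of 15 tested genes of apolipoprotein E lipid transport. The list includes receptors, lipid exporters, neighbours in the gene cluster and the LXR factors that switch such genes on. It had 1 gene higher and 1 lower at an unadjusted p under 0.05, beside 12% and 15.9% of all tested genes. There were 6 higher and 9 lower values, with a median log2 fold change of -0.25 against -0.06 over all tested genes. Apoc2, a lipase cofactor from the same gene cluster, was at 140, 184 and 188 FPKM against 118, 119 and 272 FPKM (adjusted p = 0.847). Plin2, which coats lipid droplets, was at 1656, 1024 and 1277 FPKM against 348, 1005 and 1244 FPKM (adjusted p = 0.295). Npc2, which moves cholesterol out of lysosomes, was at 117 ± 9.59 against 115 ± 34.8 FPKM (adjusted p = 0.875). Control replicate 6 was the lowest library for Plin2, while it was the highest for Apoe.

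Ly6c2 encodes a small lipid-anchored surface protein, recognised together with the product of Ly6c1 by antibodies to Ly6C. The 2 genes are neighbours on chromosome 15 (Ly6c2 at chr15:75108158-75111970 and Ly6c1 at chr15:75044018-75048830, minus strand, GRCm38), and their coding sequences of 393 bases each were identical at 384 positions, or 97.7%. The first 150 coding bases show how alike they are, with the 6 bases that differ between the genes in capitals:
Ly6c2: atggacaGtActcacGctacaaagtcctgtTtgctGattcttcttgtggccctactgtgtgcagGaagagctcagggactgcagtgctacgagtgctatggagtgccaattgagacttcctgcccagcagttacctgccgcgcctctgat
Ly6c1: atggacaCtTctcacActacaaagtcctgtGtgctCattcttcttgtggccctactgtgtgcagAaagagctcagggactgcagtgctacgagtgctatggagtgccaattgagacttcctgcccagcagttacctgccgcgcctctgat

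Over the whole 822-base Ly6c2 transcript, 32.6% of all windows of 50 bases also occur in Ly6c1, and a fragment from such a stretch could have come from either gene; the sources used here do not say how these were counted. Of the other marker genes, F13a1, Mpeg1, Cd68, Apoe and Adgre1 shared no such window with another gene. Ly6c2 was measured at 2069, 2677 and 2610 FPKM in knockout replicates 1, 4 and 5 and at 1140, 1924 and 1561 FPKM in control replicates 6, 8 and 9. Every knockout library exceeded every control, with control replicate 8 just below knockout replicate 1. With every library scaled to the mean total the groups overlapped, control replicate 8 at 2043 FPKM and knockout replicate 1 at 2016 FPKM, and the unadjusted p was 0.0887.

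The Ly6c2 means were 2452 ± 333 and 1542 ± 392 FPKM (SD, n = 3 each), a ratio of 1.59. On the log2 scale Ly6c2 was 0.69 higher (SE 0.29, 95% interval 0.03 to 1.35), with an unadjusted p of 0.0420 and an adjusted p above the threshold at 0.165. The exact permutation p was 0.1. It stayed higher but smaller with quantile normalization (0.25), array weights (0.29) or equal totals (0.49). Ly6c1 ranged from 450 to 599 FPKM over knockout libraries and from 263 to 436 FPKM over controls (log2 fold change 0.65, adjusted p = 0.136). Ly6c1 stood at a nearly fixed share of Ly6c2 in all 6 libraries, from 20.8% to 23.0%, with a mean of 21.8% ± 1.10 in knockout and 22.4% ± 0.748 in control libraries. Summing both genes gave a log2 fold change of 0.69 (adjusted p = 0.176), an alternative chosen after the data were seen.

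**Figure D2:**
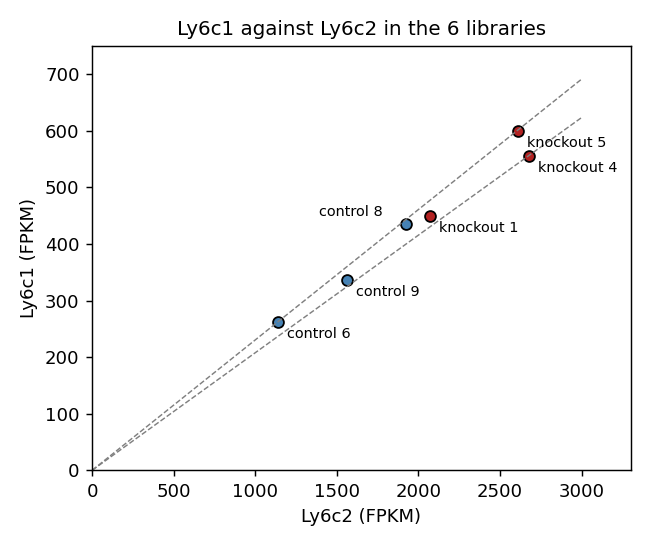
Ly6c1 FPKM against Ly6c2 FPKM in the 6 libraries, red for knockout and blue for control; the dashed lines mark Ly6c1 at 20.8% and at 23.0% of Ly6c2. Control 6 is lowest and knockout 4 and 5 are highest for both genes.

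Of 18 listed Ly6 genes on chromosome 15, Ly6c1 and Ly6c2 included, 6 were tested, and all 6 had a positive log2 fold change. Ly6a, Ly6e and Ly6i overlapped between the groups. Limma called 1 of the 6 higher, beside 1.38% of all tested genes. The median log2 fold change was 0.67, beside -0.06 over all tested genes. These values are as deposited, not scaled to equal totals, and Ly6c1 and Ly6c2 share sequence. Control replicate 6 was the lowest library for all 6. The gene that rose was Ly6g, the surface marker of neutrophils: knockout 118, 74.0 and 33.3 FPKM, control 1.92, 6.48 and 8.05 FPKM (log2 fold change 3.53, adjusted p = 0.0215). Ly6a, which encodes the stem cell antigen Sca-1, was at 90.9, 41.3 and 60.9 FPKM against 17.2, 25.7 and 71.7 FPKM (adjusted p = 0.245). Ly6e had a log2 fold change of 0.38 (adjusted p = 0.495) and Ly6i one of 0.24 (adjusted p = 0.592). Among all 104 other tested genes within 5 Mb of Ly6c2 the median was 0.05, with 58 higher.

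Adgre1 (chr17:57358691-57483527, plus strand) encodes F4/80, an adhesion receptor with EGF-like repeats and the classic antigen of mouse macrophages. It was measured at 47.9, 22.1 and 81.7 FPKM in knockout replicates 1, 4 and 5 and at 53.6, 53.2 and 98.4 FPKM in control replicates 6, 8 and 9. The groups overlapped, with knockout replicate 4 lowest, control replicate 9 highest and knockout replicate 5 above 2 of the controls. The means were 50.6 ± 29.8 and 68.4 ± 26.0 FPKM (log2 fold change -0.55, SE 0.44, 95% interval -1.56 to 0.46, adjusted p = 0.425). Without knockout replicate 4 the log2 fold change was -0.06, without control replicate 9 it was -0.26, with array weights -0.12 and without knockout replicate 5 -0.98. Its relative Adgre5, which encodes the leukocyte receptor CD97, was at 12.0 ± 2.85 against 9.52 ± 3.05 FPKM (adjusted p = 0.460).

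Cd68 (chr11:69664213-69666153, minus strand), a member of the LAMP family of heavily glycosylated endosome and lysosome proteins, was measured at 201, 202 and 156 FPKM in knockout replicates 1, 4 and 5. The controls held 87.5 FPKM (replicate 6), 93.8 FPKM (replicate 8) and 210.0 FPKM (replicate 9). Controls 6 and 8 lay well below all knockout libraries, but control replicate 9 was the highest of all. The means were 186 ± 26.2 and 130.4 ± 69.0 FPKM (log2 fold change 0.62, SE 0.33, 95% interval -0.13 to 1.37, adjusted p = 0.245). Without control replicate 9 it was 1.02 (adjusted p = 0.0596), and with weights on the libraries 0.97 (adjusted p = 0.00720). It was smaller under other settings: 0.22 after correction for length and GC content (adjusted p = 0.680), 0.39 without control replicate 6, 0.44 without control replicate 8 and 0.42 at equal totals. The lysosomal membrane genes Lamp1 and Lamp2 also overlapped between groups, Lamp1 with a log2 fold change of 0.66 (adjusted p = 0.198) and Lamp2 with one of -0.42 (adjusted p = 0.334).

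Mpeg1 (chr19:12460779-12465283, plus strand) encodes perforin-2, a pore-forming protein that phagocytes use against engulfed bacteria. It was measured at 28.4, 10.3 and 30.8 FPKM in knockout replicates 1, 4 and 5 and at 23.3, 42.8 and 72.8 FPKM in control replicates 6, 8 and 9. Control replicate 6 fell among the knockout libraries, and libraries of 1 group differed up to 3.12-fold. The means were 23.2 ± 11.2 and 46.3 ± 24.9 FPKM (log2 fold change -0.96, SE 0.48, 95% interval -2.06 to 0.14, adjusted p = 0.221). It ranged from -1.37 to -0.49 when single libraries were left out, the smallest without knockout replicate 4 or control replicate 9.

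F13a1 (chr13:36867178-37050244, minus strand) encodes the catalytic A subunit of coagulation factor XIII, a transglutaminase that monocytes and macrophages keep in the cytoplasm. It was measured at 861, 517 and 1439 FPKM in knockout replicates 1, 4 and 5 and at 1319, 568 and 1499 FPKM in control replicates 6, 8 and 9. Knockout replicate 4 and control replicate 8 were low, knockout replicate 5 and control replicates 6 and 9 were high, and the groups overlapped. The means were 939 ± 466 and 1129 ± 494 FPKM (log2 fold change -0.27, SE 0.46, 95% interval -1.33 to 0.79, adjusted p = 0.722), and it turned to 0.10 without knockout replicate 4 and to 0.50 with array weights. It was -0.64 without knockout replicate 5 and -0.70 without control replicate 8. The other tested transglutaminase gene, Tgm2, was far lower, at 1.16 ± 0.461 against 1.91 ± 2.54 FPKM (adjusted p = 0.916).

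Ms4a6c (chr19:11469366-11482192, plus strand) encodes a membrane protein of the CD20-like MS4A family that is expressed in monocytes. It was the lowest of the 7, at 0.777, 1.47 and 3.04 FPKM in knockout replicates 1, 4 and 5 and at 5.80, 1.51 and 2.96 FPKM in control replicates 6, 8 and 9. Control replicate 6 was the highest and the groups overlapped (means 1.76 ± 1.16 and 3.42 ± 2.18 FPKM, log2 fold change -0.64, SE 0.41, 95% interval -1.58 to 0.29, adjusted p = 0.322). Its level is uncertain in 2 ways: 53.1% of its exon bases lie opposite exons of the antisense gene BE692007, and whether the counting used strand is unknown here, and 11.3% of its windows of 50 bases occur in another gene, 6.08% in Ms4a6b and 3.68% in Prdm11. The log2 fold change was -0.27 without control replicate 6 and -0.37 when knockout replicate 1 was left out, but -0.96 when knockout replicate 5 was left out and -0.99 without control replicate 8. About 72 to 651 fragments lay behind each value. Of the other MS4A genes, 3 were tested and none passed. Ms4a6d, another monocyte member, was at 5.30, 2.68 and 7.31 FPKM against 10.1, 12.9 and 21.3 FPKM (adjusted p = 0.0797). Ms4a3, a marker of granulocyte and monocyte progenitors, was at 12.4, 11.9 and 38.8 FPKM against 67.3, 339 and 28.1 FPKM (adjusted p = 0.132). Ms4a7 was near 1 FPKM in both groups (adjusted p = 0.758). With Ms4a6c, all 4 tested MS4A genes had a negative log2 fold change. Their median was -1.01, beside -0.06 over all tested genes. At an unadjusted limma p under 0.05, 2 of the 4 were lower, beside 15.9% of all tested genes.

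**Figure D3:**
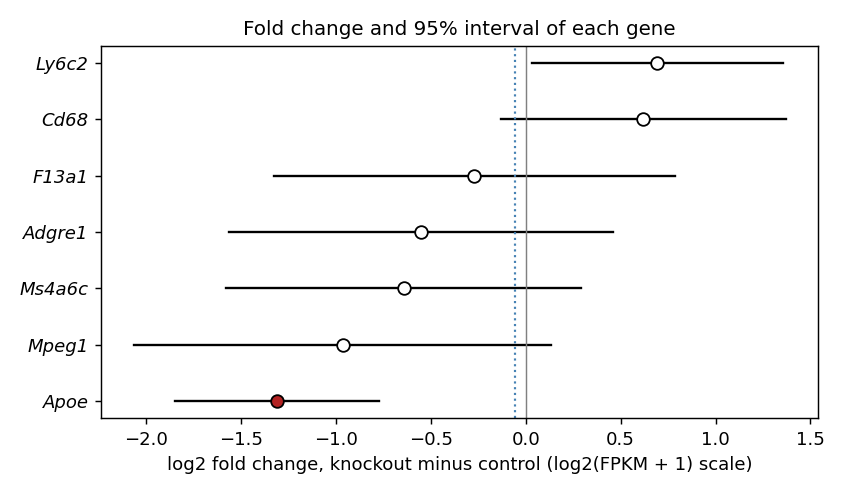
Log2 fold change (knockout minus control, log2(FPKM + 1) scale) of the 7 genes with 95% intervals from limma; the filled point passed an adjusted p of 0.05 and the dotted line is the median of all tested genes. Apoe is at -1.31 with an interval clear of 0, Ly6c2 at 0.69 has an interval that starts at 0.03, and the other 5 intervals include 0.

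Between genes, levels per transcript length ran from Ly6c2 and F13a1 through Cd68, Adgre1 and Mpeg1 to Apoe and Ms4a6c. Cd68 exceeded Adgre1, and Adgre1 exceeded Mpeg1, in 6 of 6 libraries, although their ranges over libraries overlapped. Ly6c2 exceeded F13a1 in all libraries except control replicate 6, and Apoe exceeded Ms4a6c in all except knockout replicate 5. The median log2 fold change of the 7 genes was -0.55, with 2 higher and 5 lower values, against -0.06 over all tested genes.

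Control replicate 9 was the highest of the 6 libraries for F13a1, Mpeg1, Cd68 and Adgre1, and it was the highest for 11 of 23 tested monocyte genes but for 14.4% of all tested genes. Knockout replicate 4 was the lowest for F13a1, Mpeg1 and Adgre1, and it was the lowest for 34.6% of all tested genes. Knockout replicate 5 stood above the gene mean by 0.60 for F13a1 and 0.59 for Adgre1 on the log2(FPKM + 1) scale, close to control replicate 9 at 0.66 and 0.86.

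**Figure D4:**
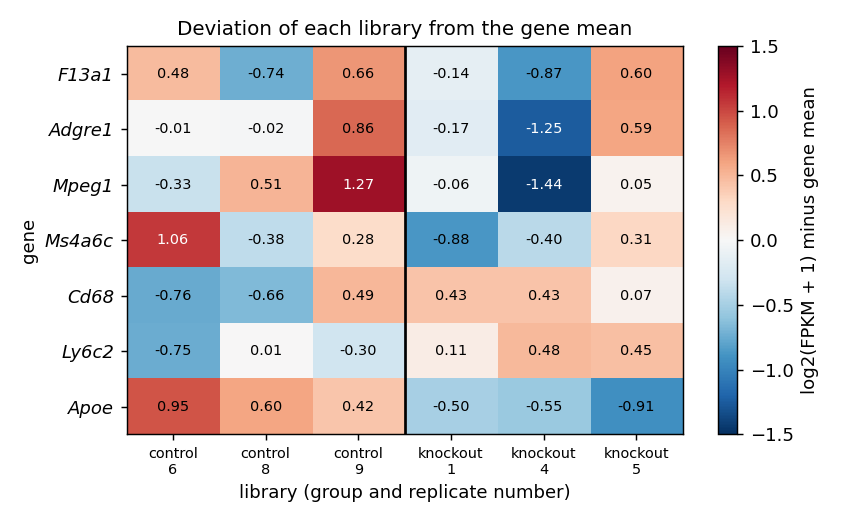
Deviation of log2(FPKM + 1) from the gene mean for each of the 7 genes (rows) in each library (columns, control left of the line and knockout right of it). Apoe changes sign at the line between the groups, whereas F13a1 and Adgre1 are low in knockout 4 and high in control 9 and knockout 5.

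Genes whose library pattern was closest to each marker were found by the root mean square difference between gene-centred log2(FPKM + 1) values over 6 libraries, among 9513 named genes. The closest to Ly6c2 was Ly6c1 (0.05), followed by Tmsb4x (0.10), the abundant actin-binding peptide thymosin beta 4, and Traf5 (0.12). The closest to F13a1 was Csf1r (0.15), the receptor for macrophage colony-stimulating factor, at 4.04, 3.02 and 7.95 FPKM in knockout replicates 1, 4 and 5 and at 7.15, 2.24 and 8.03 FPKM in control replicates 6, 8 and 9. Csf1r was picked for its likeness over these same 6 libraries. Its low values in knockout replicate 4 and control replicate 8, as in F13a1, restate that choice. Whether such nearness exceeds what 9513 genes give by chance was not tested. The nearest to Adgre1 were Itga1 (0.13), Emp1 (0.19) and Iqgap1 (0.20), and to Mpeg1 Abcc5 (0.13), Ly75 (0.15) and Gcnt1 (0.15). For Apoe they were Paxbp1 (0.18), Glb1l (0.19) and Ep300 (0.21), for Cd68 Sh3glb1, C1rl and Cib2 (0.10 to 0.12), and for Ms4a6c Gas7 (0.15), Csf3r (0.26) and Slc16a7 (0.27).

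Wider lists put the 7 genes in context. Of 23 tested genes on a list of other monocyte genes none passed. The median log2 fold change was -0.06, beside -0.06 over all tested genes. On this list 7 genes were higher and 3 lower at an unadjusted p under 0.05, beside 12% and 15.9% of all tested genes. Its most abundant members were Chil3, a chitinase-like secreted protein (4301 ± 1407 against 5647 ± 433 FPKM, adjusted p = 0.423), Lyz2, the lysozyme of phagocytes (4405 ± 637 against 5068 ± 3175 FPKM, adjusted p = 0.963), and Lgals3, galectin-3 (1055 ± 195 against 377 ± 247 FPKM, adjusted p = 0.0767). Cx3cr1 and Fcgr1, genes of patrolling monocytes and of macrophages, stayed under 1 FPKM in all 6 libraries.

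Most tissue macrophage genes were not expressed at a level that could be tested. Only 5 of 21 passed the filter on low values, none of them past the test. Among these 5, 1 was higher and 1 lower at an unadjusted p under 0.05, beside 12% and 15.9% of all tested genes. The higher 1 was Tmem119. The lower 1 was Msr1, at 8.94, 3.61 and 9.37 FPKM against 12.5, 19.3 and 30.7 FPKM (adjusted p = 0.0874). Of the genes that missed the filter, C1qb reached 2.32 and C1qc 2.60 FPKM in knockout replicate 5, and Mrc1 1.40 FPKM in control replicate 8. Cd163, Cd5l, Folr2, Timd4 and Vsig4 were at or under 0.0294 FPKM in all libraries. The most abundant were Gpnmb, a glycoprotein of lipid-laden macrophages (285 ± 178 against 203 ± 112 FPKM, adjusted p = 0.540), Tmem119 (70.7, 68.5 and 74.0 against 2.82, 1.72 and 28.7 FPKM, adjusted p = 0.0572) and the lipid receptor gene Trem2 (17.6 ± 2.27 against 24.0 ± 18.5 FPKM, adjusted p = 0.796).

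Of 12 tested genes on a list of monocyte transcription factors, 1 rose and none fell, beside 1.38% and 0.519% of all tested genes. The list had 10 higher values and a median log2 fold change of 0.82, beside -0.06 over all tested genes. The higher values include Cebpe (1.28, adjusted p = 0.251) and Gfi1 (0.57, adjusted p = 0.357), which are known for granulocyte rather than monocyte development. The call was Irf5, an interferon regulatory factor of inflammatory macrophages, from 11.5 to 13.4 FPKM in knockout libraries and from 2.76 to 3.77 FPKM in controls (log2 fold change 1.64, SE 0.21, adjusted p = 0.0167). Cebpe and Gfi1 are outside the naming rule, as is Spi1, the gene of PU.1. Spi1 was at 232 ± 27.4 against 218 ± 40.6 FPKM (adjusted p = 0.774).

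**Figure D5:**
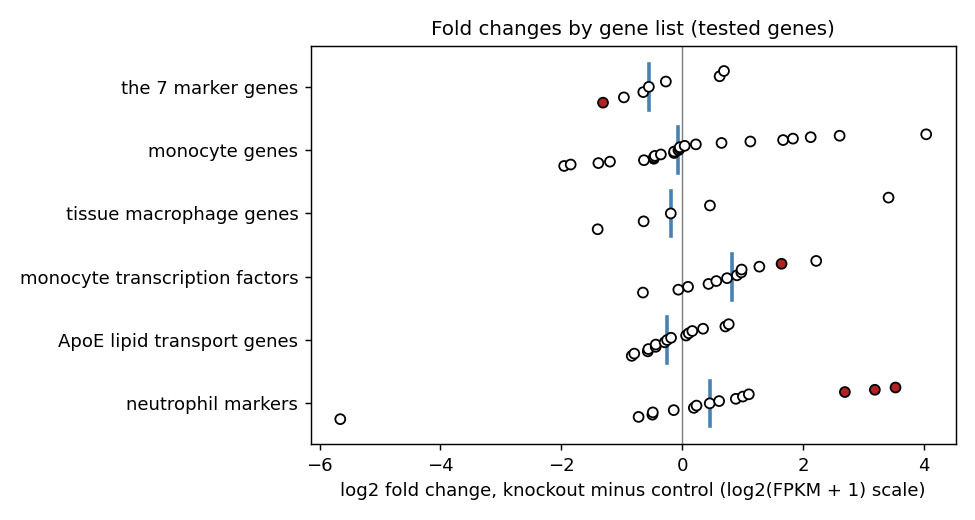
Log2 fold change of each tested gene (points, filled where the adjusted p was under 0.05) on the 7-gene set and on 5 other lists, with each list's median as a blue line. The monocyte list spreads on both sides of 0 with no filled point, and the transcription factor list has 1 filled point, Irf5 at 1.64.

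Markers of other blood cells were checked beside these results. Limma called none of 2 tested eosinophil, 1 dendritic cell, 1 T and NK cell and 3 megakaryocyte markers. Among these, Siglecf (eosinophil) and Ppbp (megakaryocyte) were higher at an unadjusted limma p under 0.05, and none was lower. Over all tested genes 12% were higher and 15.9% lower at that threshold. Both genes were low, with means of 3.00 against 1.27 FPKM for Siglecf and 2.17 against 0.844 FPKM for Ppbp. Ppbp overlapped between the groups. Of 15 tested neutrophil markers 3 rose (Ly6g, Lcn2 and Retnlg) and none fell, beside 1.38% and 0.519% of all tested genes. The list held 10 higher and 5 lower values. Its summed level overlapped between groups, from 5552 to 11314 FPKM in knockout and from 3801 to 11291 FPKM in control libraries. Lcn2, an iron-binding granule protein, was at 115, 186 and 77.5 FPKM against 12.5, 14.7 and 28.6 FPKM (adjusted p = 0.0204). Mpo, the myeloperoxidase of early granules, was singled out afterwards for the largest difference on the list. Knockout libraries held 0.289 to 9.36 FPKM of it, below control replicates 6, 8 and 9 with 455, 737 and 10.2 FPKM (log2 fold change -5.66, adjusted p = 0.0763). The summed B cell markers reached at most 0.250 FPKM and the summed erythroid markers at most 1.98 FPKM over the libraries. The mast cell and basophil list of 9 genes summed to 2.82 to 9.38 FPKM in knockout and 2.79 to 33.4 FPKM in control libraries, with Cpa3, Fcer1a, Cma1 and Tpsb2 listed at 0 in all. Its tested members were Kit, the stem cell factor receptor, at 0.736, 1.18 and 6.66 FPKM against 27.6, 8.03 and 0.715 FPKM (adjusted p = 0.374), and Mcpt8, a basophil protease, at 2.49 ± 0.589 against 6.48 ± 5.07 FPKM (adjusted p = 0.253). The part that neutrophil, mast cell and basophil genes have in the marker values was not tested.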

How the data were processed

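RNA sequencing values of 6 libraries, 3 per group, were used as deposited: the authors gave FPKM per gene, with reads checked in FastQC and aligned to mm10 with STAR 2.5.2b, per the submitters' processing notes. For the counting tool, annotation and strand nothing is given in the sources used here. Whole counts could not be recovered, so no count test was run. Genes at 1 FPKM or more in at least 3 libraries were tested with limma 3.58.1 (R 4.3.3, trended prior) on log2(FPKM + 1), with Benjamini-Hochberg adjustment over all 9830 genes and a threshold of 0.05. These fold changes understate the change of low genes. The code was tested on simulated data. Single values were also compared with an exact two-sided permutation test.

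Members and gene lists were chosen with earlier results of these data known. From each list, up to 6 genes past the threshold were named, or the 3 with the highest mean FPKM where none passed, with tested members of gene families and the 3 genes nearest each marker. Genes outside this rule were also named, among them Cebpe, Gfi1, Spi1, Cx3cr1, Fcgr1, Msr1, C1qb, C1qc and Mrc1. Alternatives covered pseudocounts (0.1 and 0.01), filters, scaling, limma's priors and weights, and each library left out; summing Ly6c1 and Ly6c2 was added after the data were seen. Promoters are from RefSeq (GRCm38.p6), and positions and coding sequences from GENCODE on GRCm38. Shared windows and coding identity used the CCDS transcript.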

Additional observations from a re-analysis of the deposited data

How the results depend on the processing

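Across all tested genes 187 passed. That count was 122 with a pseudocount of 0.01, 23 without a filter, 97 at a mean of at least 5 FPKM, 120 at equal totals and 4154 with array weights, and 20 to 197 with single libraries left out, lowest without knockout replicate 4 and highest without control replicate 9. Among the 7 markers 1 passed, 0 without a filter, 2 with array weights (Apoe and Cd68) and 0 to 1 with single libraries left out. F13a1 turned to 0.50 with array weights and ranged from -0.70 to 0.10 over the libraries left out. The cause of these shifts was not tested. Of 119 alternative values for single markers, 110 kept direction and side of the threshold. That count mostly covers the 6 markers that had no call to lose. Apoe, the 1 marker called, kept its call in 11 of 17 alternatives and lost it in 6. No paired analysis was possible because knockout and control libraries share no replicate number. Depth limits Ms4a6c most, and with 3 libraries a group exact tests cannot go below 0.1.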

Other observations

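Among the tested monocyte genes, 2 that differed widely without passing the test are described, named here after their values were seen. Ccr2, the chemokine receptor that brings monocytes out of the marrow, was at 124, 65.0 and 82.4 FPKM in knockout replicates 1, 4 and 5, and at 191, 299.9 and 551 FPKM in control replicates 6, 8 and 9 (adjusted p = 0.0520). Every knockout library lay below every control. Cd14, a co-receptor for bacterial lipopolysaccharide, was at 325, 471 and 323 FPKM against 60.5, 51.4 and 185 FPKM (adjusted p = 0.0513). For Cd14 every knockout library lay above every control. Such separation is common here: 21.8% of all tested genes were lower and 14.5% higher in knockout libraries without overlap between the groups.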
